A study of Mus musculus with 5 samples.

Results

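Primary transcription was measured at the microRNA genes of mouse embryonic stem cells (MESC) and mouse embryonic fibroblasts (MEF) by GRO-seq, a nuclear run-on in which RNA polymerases already on the DNA extend their transcripts with a brominated nucleotide, and the labelled RNA is pulled down and sequenced. The genes were the 1577 genes of type miRNA in the GENCODE annotation of mm9. A window reached 2 kb to either side of each hairpin on its own strand, and hairpins within 5 kb on 1 strand were joined, which gave 1289 clusters. Of these, 424 clusters with 573 hairpins lay inside a protein-coding gene of the same strand and 865 clusters with 1004 hairpins lay outside. Only 550 of the hairpins carry a microRNA name. The other 1027 carry the name of a genomic clone, and the clusters of both kinds are given separately where it matters. A cluster is called by its first named hairpin.

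MESC were the line V6.5, from a cross of C57Bl/6 and 129/Sv mice, at passage 12 to 14, grown with 15% serum and LIF on irradiated feeder cells. MEF came from male E13.5 embryos of the same cross, were used at passage 2, and were grown with 10% serum and no LIF or feeders. The labels list 3 MESC and 2 MEF samples, but the reads are deposited as 1 pool per cell type with no sample names. No replicate error could therefore be computed, and no p-value is given. Each ratio of read densities has an exact 95% interval that covers counting error only, and reads were not marked with molecular identifiers, so they are not independent molecules.

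A microRNA gene is transcribed, usually by RNA polymerase II, into a long primary transcript that holds one or several hairpins. The nuclear enzyme Drosha cuts the hairpins out, Dicer trims them to mature microRNAs, and bases 2 to 8 of the mature strand, the seed, pair with target messages. Hairpins in an intron or exon of a coding gene can share the transcript of that host gene, while the others need a transcript of their own or one that runs on from a neighbour. Run-on reads show polymerase passing a hairpin and not the amount of the mature microRNA.

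The seeds that tie the clusters of highest MESC to MEF ratio to each other are shown first, as mature sequences from RefSeq (GRCm38.p6) that were found letter for letter in the mm9 hairpins, with the seed in capitals. Mature microRNAs of the Mir290 and Mir302b clusters have a seed in common, and the 17 to 92 family, spread over Mir17, Mir106b and Mir106a, carries a seed shifted by a base. The strand of miR-367 in the Mir302b cluster has the seed of miR-92a and miR-363.
mmu-miR-291a-3p: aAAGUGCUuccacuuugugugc
mmu-miR-294-3p: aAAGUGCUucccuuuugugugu
mmu-miR-295-3p: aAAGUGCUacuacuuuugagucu
mmu-miR-302b-3p: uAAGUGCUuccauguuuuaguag
mmu-miR-302d-3p: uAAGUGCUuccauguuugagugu
mmu-miR-106a-5p: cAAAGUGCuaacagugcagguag
mmu-miR-20b-5p: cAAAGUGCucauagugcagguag
mmu-miR-17-5p: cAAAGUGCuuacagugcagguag
mmu-miR-367-3p: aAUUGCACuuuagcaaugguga
mmu-miR-363-3p: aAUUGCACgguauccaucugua
mmu-miR-92a-3p: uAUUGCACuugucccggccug

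The next sequences belong to the miR-200 family, to let-7 and to microRNAs whose clusters had more reads in MEF. The members of the miR-200 family come from a cluster on chromosome 4 and another on chromosome 6 and have a pair of seeds that differ in a single base. The capitals again mark the seed.
mmu-miR-200a-3p: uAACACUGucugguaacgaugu
mmu-miR-141-3p: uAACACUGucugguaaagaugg
mmu-miR-200b-3p: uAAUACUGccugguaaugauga
mmu-miR-200c-3p: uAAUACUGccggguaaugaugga
mmu-miR-429-3p: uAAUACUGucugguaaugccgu
mmu-let-7c-5p: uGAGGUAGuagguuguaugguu
mmu-let-7b-5p: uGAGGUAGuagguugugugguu
mmu-let-7i-5p: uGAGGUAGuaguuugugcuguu
mmu-miR-199a-3p: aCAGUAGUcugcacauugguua
mmu-miR-214-3p: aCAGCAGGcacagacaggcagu
mmu-miR-21a-5p: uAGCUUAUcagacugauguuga
mmu-miR-675-5p: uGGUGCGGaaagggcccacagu

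The MESC pool held 8571395 reads outside the mitochondrial genome and the MEF pool 6571116, and densities are given as RPKM, reads per kb of window scaled to the total of these reads. Marker genes followed the labels. The 6 stem cell markers, among them Pou5f1 and Nanog, had 3049 reads in MESC and 6 in MEF, and the 6 fibroblast markers, among them Col1a1, had 497 and 11746. Macrophage markers had 18 reads in MESC and 238 in MEF over the 5 measured genes, and none of the 5 was at 0. In MEF 4 of them reached 20 reads, and in MESC 0 did. Their MEF densities ran from 0.0478 RPKM for Ptprc to 1.76 for Lyz2. Whether feeder cells or macrophages added reads to a pool was not tested. In such bulk pools, a lower share of cells that transcribe a gene and less polymerase per cell cannot be told apart.

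A minority of the microRNA clusters had enough reads to be compared. At least 20 reads in 1 library, the minimum for a comparison, were found at 390 of the 1289 clusters, and 404 clusters had no read in either library. The remaining clusters had some reads but stayed under the minimum. At the intergenic level, a window of about 4 kb would hold 0.746 MESC reads or 0.439 MEF reads. Whether the low counts exceed that level was not tested. Inside coding genes 236 of 424 clusters reached the minimum (55.7%, exact binomial 95% interval 50.8 to 60.5), and outside 154 of 865 (17.8%, 15.3 to 20.5). The gap was wider among clone names. Outside coding genes, 87 of 180 clusters with a microRNA name were measured (48.3%), against 67 of 685 with clone names alone (9.78%). Inside, the shares were 61% of 172 and 52% of 252. Taken by library, 132 outside clusters had 20 reads in MESC and 113 in MEF, and inside 211 and 180, with the MESC pool the deeper.

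The share measured differed by place. Of 59 clusters within an annotated non-coding RNA gene, 33 were measured (55.9%), and of 54 within 10 kb after a coding gene, 25 were (46.3%). Of 565 intergenic clusters 72 were measured (12.7%), and of 187 antisense to a coding gene 24 were (12.8%). Among inside clusters, 71 of 94 in exons and 164 of 329 in introns were measured.

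A cluster was called different when its RPKM differed at least 4-fold between the pools, with 3 reads standing for any lower count. Outside coding genes, 26 of the 154 measured clusters were called higher in MESC (16.9%) and 25 higher in MEF (16.2%), and 103 were within 4-fold. The same rule called 10.1% of 11981 gene bodies higher in MESC and 6.19% higher in MEF, and 10.4% and 9.12% of 109926 tiles of 4 kb away from microRNA windows. Inside coding genes, 16 of 236 clusters were called higher in MESC (6.78%) and 28 higher in MEF (11.9%). Among all 192 measured clusters with a microRNA name, inside or outside, 12% were called higher in MESC and 16.1% higher in MEF. These shares stand beside the counts of the family lists below. The median log2 ratio of MESC to MEF was 0.06 outside and 0.15 inside, beside 0.31 over gene bodies and 0.24 over tiles. A window that kept pace with the median gene body would thus stand slightly above 0. Among outside clusters, those in non-coding RNA genes were called most often, 8 of 33 higher in MESC and 9 of 33 in MEF, and those after a coding gene least often, 1 and 1 of 25.

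**Figure D1:**
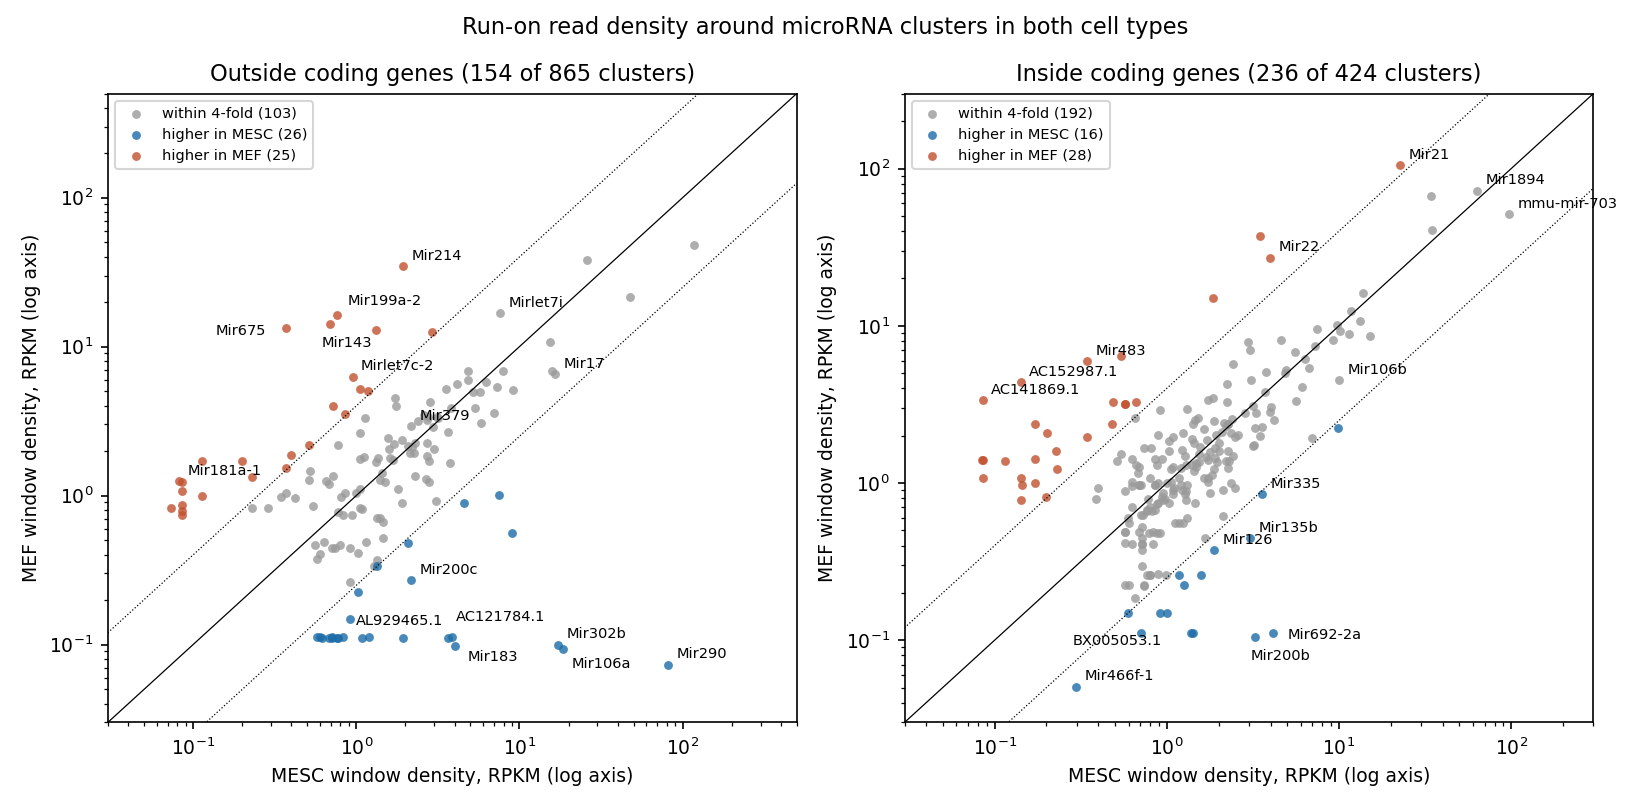
RPKM of each measured cluster in MESC (x) and MEF (y) on log axes, outside coding genes at left and inside at right, counts under 3 drawn at 3 reads; the solid line marks equal density and the dotted lines 4-fold. Outside, 26 clusters lie below and 25 above the dotted lines, with Mir290 farthest to the right of them; the window of mmu-mir-2134-4 lies beyond the left panel's axes.

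The clusters of the early embryo gave the widest gaps. The Mir290 cluster on chromosome 7, 3218627 to 3220842 on the plus strand (mm9, intergenic), holds the 7 hairpins Mir290 to Mir295, whose microRNAs are the most abundant family of mouse embryonic stem cells and promote their rapid cell cycle. Its window had 4362 reads in MESC and 1 in MEF, or 81.9 and 0.0245 RPKM. The ratio was 3344, with an interval of 600 to 132113 because of the single MEF read. Its reads began at 1607 positions, so the count does not rest on a pile-up at a few bases.

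The Mir302b cluster on chromosome 3, 127248146 to 127248725 on the plus strand, antisense to a coding gene, holds Mir302a to Mir302d and Mir367, microRNAs of early embryos and primed pluripotent cells, of which miR-302b-3p and miR-302d-3p carry the seed of miR-294-3p. The MESC pool had 680 reads there, 17.3 RPKM, and the MEF pool 0. With 3 reads put in place of the 0, the ratio was 174, a value set by that floor and not a lower bound. The Mir106a cluster on chromosome X, 50094870 to 50095744 on the minus strand within the non-coding gene Kis2, is a relative of the proliferation cluster Mir17. The MESC pool had 773 reads, 18.5 RPKM, against 0, a density 198-fold higher with the same floor. Neither cluster had a single sense read over its window in the MEF pool.

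The other members of that family were read in both cell types. Mir17, the cluster known as an oncogene of lymphoma, lies in the non-coding gene Mir17hg on chromosome 14 and had 685 reads in MESC and 208 in MEF, a ratio of 2.52 (2.16 to 2.96). The Mir106b cluster, with Mir93 and Mir25, lies inside Mcm7, a gene of the replicative helicase, and had 387 and 133 reads, a ratio of 2.23 (1.83 to 2.74). Of the 5 clusters listed for the early embryo and proliferation, 3 were thus called higher in MESC and 2 lay within 4-fold, with a median log2 ratio of 7.44.

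Polymerase density was uneven along these clusters. With 100 bp added to either side, the first hairpin, Mir290, stood at 56.1 RPKM in MESC, Mir291a at 46.3 and Mir292 at 143, and the last ones, Mir293 to Mir295, at 95 to 96.9. In the Mir302b cluster, Mir302d stood at 6.58 and Mir367 at 16.5. The order by density was the same in Mir17 in both pools, from Mir18 (5.12 in MESC and 2.06 in MEF) to Mir20a (54.3 and 20.3). In the Mir106a cluster, which has 0 MEF reads there, the counterpart Mir20b was again the densest, at 47.9 RPKM in MESC.

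**Figure D2:**
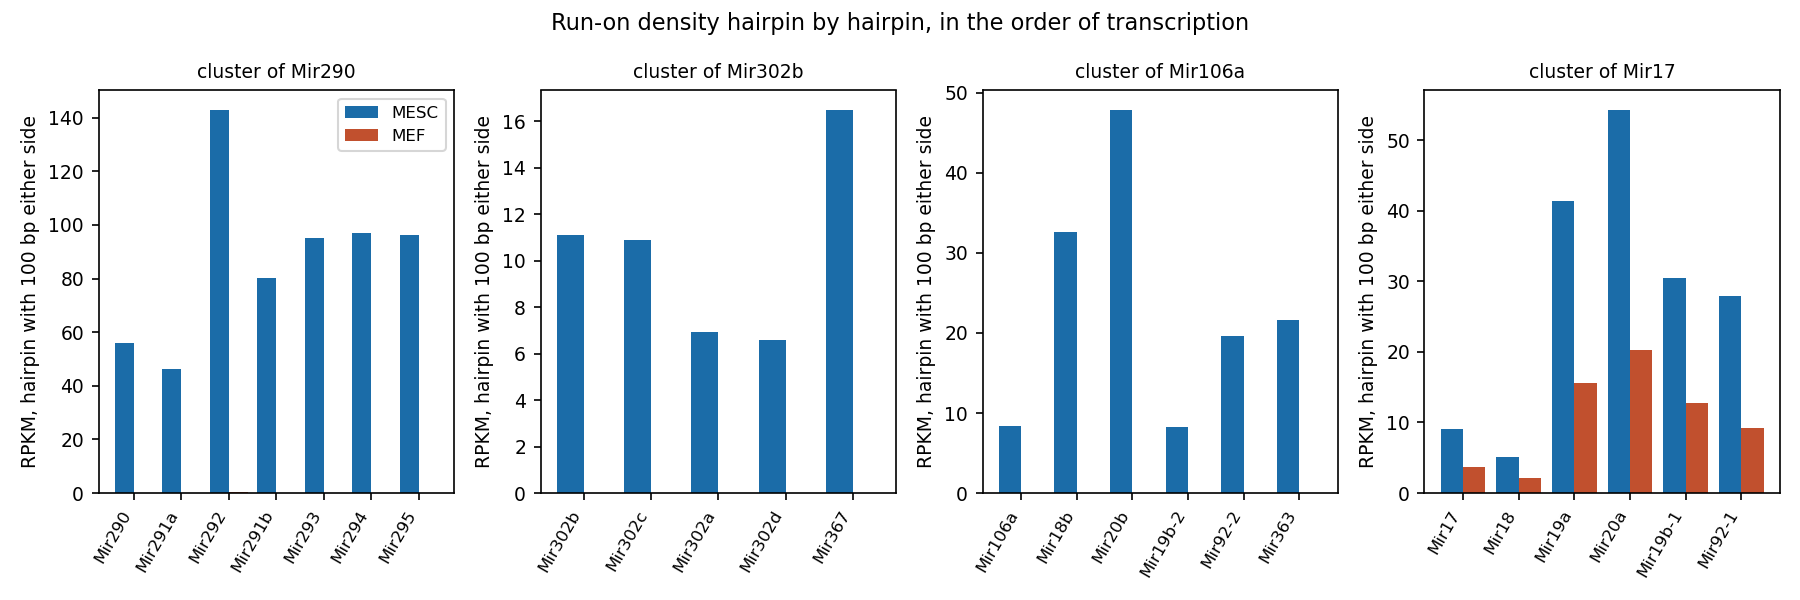
RPKM over each hairpin with 100 bp to either side in MESC (blue bars) and MEF (orange bars), with hairpins in the order of transcription. Mir292 at 143 RPKM is the highest of the Mir290 cluster, and Mir20a and its relative Mir20b lead their clusters at 54.3 and 47.9 RPKM in MESC; bars at 0 in MEF stand for no read.

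The reads also showed how far the primary transcripts reached. At Mir290, the 1 kb bin ending 1 kb before the first hairpin had 1 MESC read, the bin just before it 371, and the bins from 0 to 4 kb after it between 708 and 1480. The count dropped to 184 in the next bin and to 22 in the one after. At Mir302b the bin before the hairpin had 69 reads, the bins from it on 79, 150 and 405, and the next 27. Both transcripts thus ran for a few kb around their hairpins, with the highest density 2 to 3 kb after the first hairpin start. At Mir106a, counts of 91 to 257 filled the bins from 3 kb before to 5 kb after the hairpin start. At the Mir143 cluster in MEF, reads began much farther off, with 53 and then 259 reads in the bins from 17 to 15 kb before the hairpin, and never fell to 0 up to the hairpin itself.

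**Figure D3:**
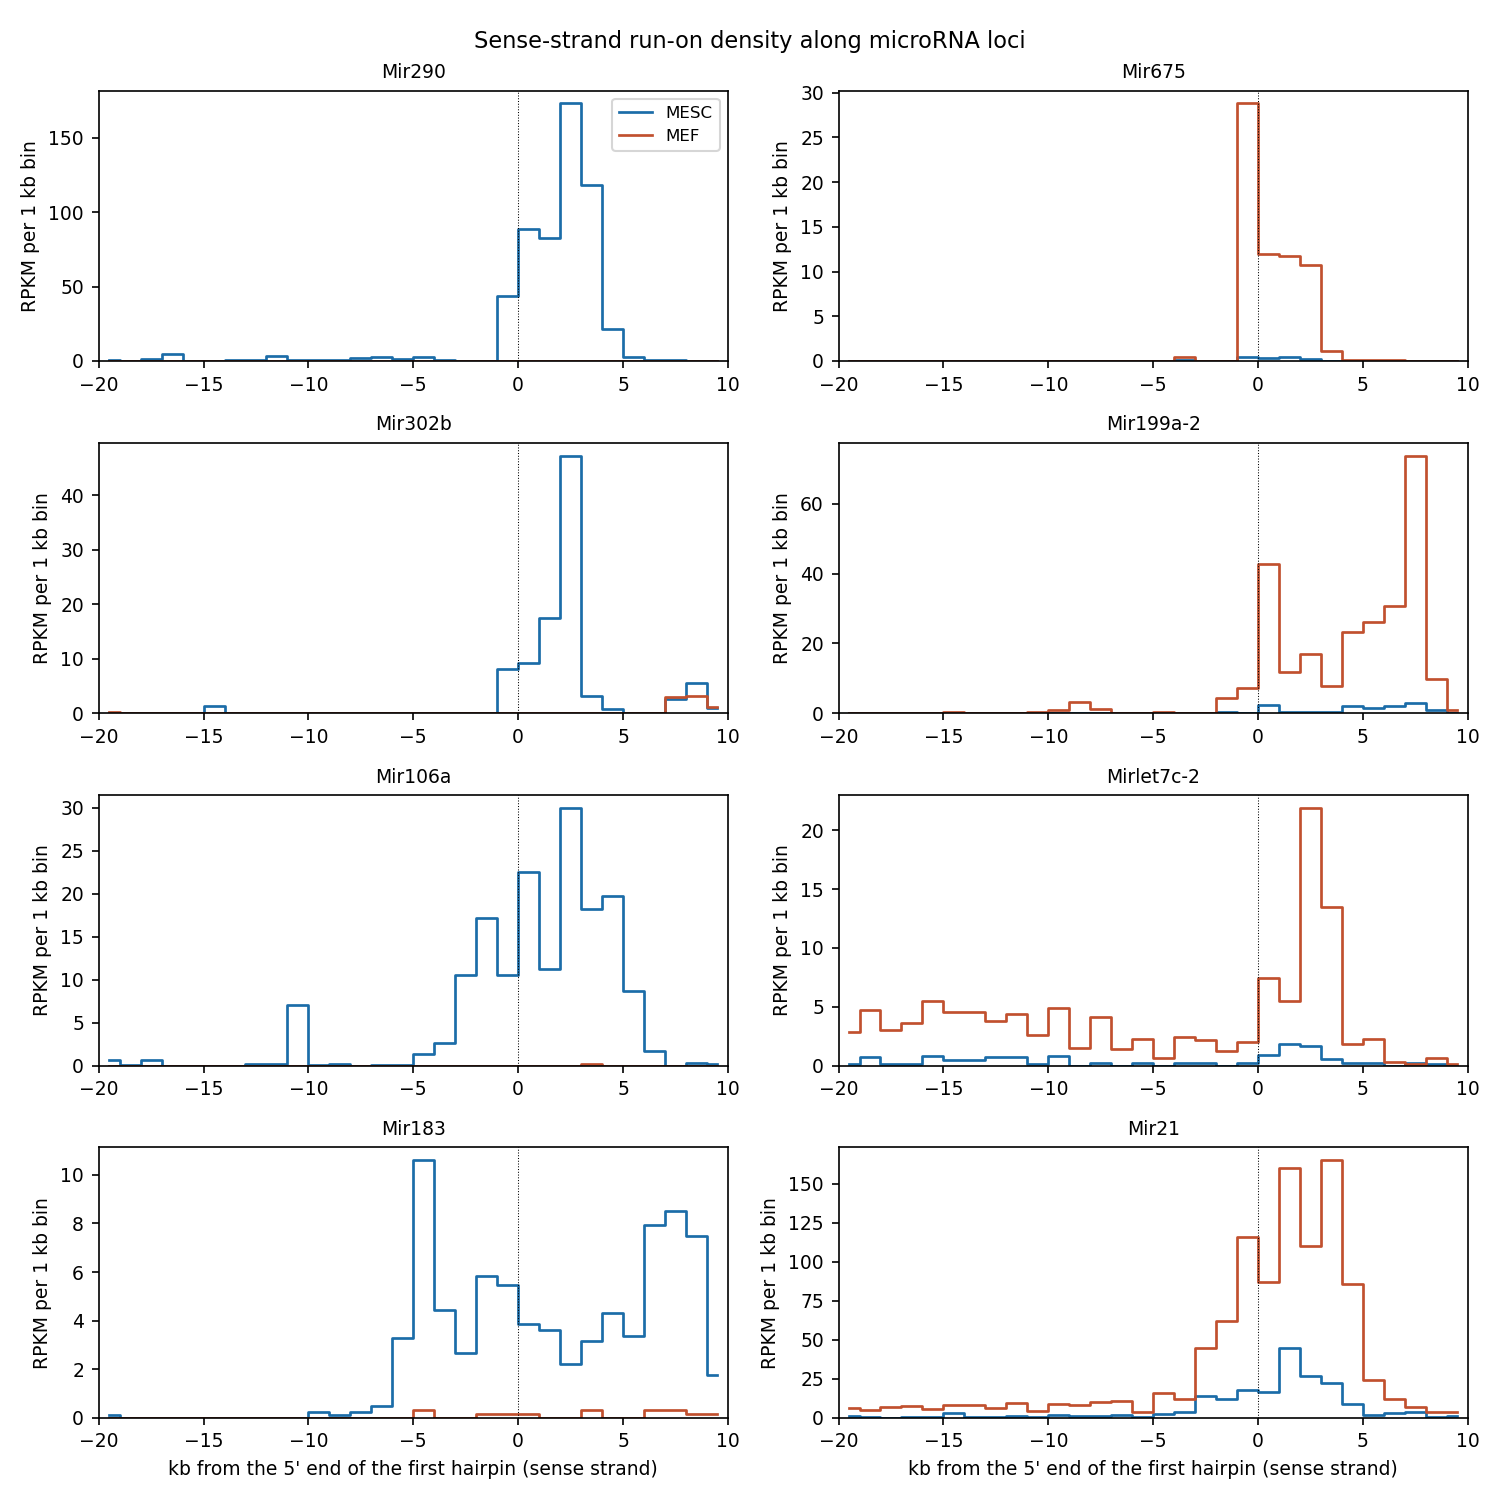
Sense-strand RPKM in 1 kb bins from 20 kb before to 10 kb after the 5′ end of the first hairpin (dotted line) in MESC (blue) and MEF (orange). Mir290, Mir302b, Mir106a and Mir183 carry reads in MESC and almost none in MEF over the cluster, while Mir675, Mir199a-2, Mirlet7c-2 and Mir21 are higher in MEF.

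In epithelia the miR-200 family restrains the mesenchymal regulators Zeb1 and Zeb2. Of 8 listed epithelial clusters 6 were measured, 4 were called higher in MESC, none higher in MEF and 2 lay within 4-fold, with a median log2 ratio of 2.60. Of all measured clusters with a microRNA name, 12% were called higher in MESC. The Mir200b cluster, with Mir200a and Mir429, lies in an intron of Ttll10 on chromosome 4 and had 163 reads in MESC and 4 in MEF, a ratio of 31.2 (12.0 to 116). The Mir200c cluster, with Mir141, had 83 and 8, a ratio of 7.95 (3.85 to 19). The Mir183 cluster, with Mir96 and Mir182, microRNAs of sensory organs, had 270 and 5, a ratio of 41.4 (17.5 to 129). Mir203, a microRNA of skin differentiation, had 36 and 6, a ratio of 4.60 (1.92 to 13.4), and this call was lost under 6 other settings. It lies 3307 bp after the coding gene Aspg, whose body had 60 and 9 reads. Whether the Mir203 reads run on from Aspg was not tested. Mir205 (47 and 19 reads) and Mir194-2 (50 and 50) were within 4-fold. The epithelial marker genes Cdh1, Epcam and Krt8 had 2340 reads in MESC and 61 in MEF together. Inside Zeb2 itself, the clone-named hairpin AL929120.1, chosen after its values were seen, had 7 reads in MESC and 56 in MEF. Any link of these reads to the miR-200 family was not tested.

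In MEF, clusters listed as mesenchymal were the counterpart. Of 18 listed clusters 16 were measured, 11 were called higher in MEF, none higher in MESC and 5 lay within 4-fold, with a median log2 ratio of -2.32. Of all measured clusters with a microRNA name, 16.1% were called higher in MEF. The non-coding gene Dnm3os, on the opposite strand of Dnm3 on chromosome 1, makes Mir199a-2 and Mir214, microRNAs of skeletal development and fibrosis. Mir199a-2 had 27 reads in MESC and 438 in MEF, 21.2-fold higher in MEF (14.3 to 32.5), and Mir214 had 68 and 941, 18.1-fold (14.1 to 23.4). They share 1 transcript and are not independent. Mir199a-1, on chromosome 9, makes the same mature microRNAs and had 3 and 23 reads, a ratio of 10.0 (3.02 to 52.0) towards MEF. This interval reaches below 4-fold, and Mir199a-1 was not followed under other settings.

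The cluster of Mir143 and Mir145, microRNAs of smooth muscle and fibroblasts, had 32 reads in MESC and 506 in MEF, 20.6-fold higher in MEF (14.4 to 30.5). Mir29b-1 with Mir29a, which target collagen messages, had 110 and 368, 4.36-fold (3.52 to 5.45). The Mir322 cluster on chromosome X, 7 hairpins with Mir503 and Mir351, had 105 and 344, 4.27-fold (3.43 to 5.37). Of the MEF reads near its hairpins, 124 lay at Mir351, 13 at Mir322 and 7 at Mir503, the 3 that come first, where MESC had 39, 3 and 2. At Mir542, Mir450-2, Mir450-1 and Mir450b, MESC had 2, 3, 2 and 2 reads and MEF 1, 0, 0 and 0, so the excess was not seen at those hairpins. The intervals of Mir29b-1 and Mir322 reach below 4-fold, and neither cluster was followed under other settings. Mir181a-1 had 2 and 35 reads and Mir99a, with Mirlet7c-1, 3 and 26, and these calls were lost under 2 and 3 other settings. The 5 mesenchymal clusters within 4-fold were Mir23a, Mir23b, Mir31, Mir222 and Mir29b-2.

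Mir21 inside Vmp1, a microRNA abundant in fibroblasts and tumours, had the most reads of these clusters in both pools. Its window held 797 reads in MESC and 2824 in MEF, 22.7 and 105 RPKM, 4.62-fold higher in MEF (4.27 to 5.01). This call was lost with each position counted once and with MESC reads of 36 bases alone. Mir22, in an exon of Tlcd2 as annotated, had 140 and 729 reads, 6.79-fold higher in MEF (5.66 to 8.20).

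The let-7 family, whose mature forms accumulate as cells differentiate, was not higher in MEF throughout. All 6 listed clusters were measured, 2 were called higher in MEF, none in MESC, and 4 lay within 4-fold, with a median log2 ratio of -0.51. The share higher in MEF was 16.1% over all measured clusters with a microRNA name. Mirlet7c-2 with Mirlet7b had 39 reads in MESC and 198 in MEF, 6.62-fold higher in MEF (4.68 to 9.59), and Mir99a with Mirlet7c-1, whose call was lost under 3 other settings, was given above. Mirlet7i had 267 and 449 reads, 2.19-fold higher in MEF (1.88 to 2.56). The remaining ones were read in MESC as well as in MEF. Mirlet7a-1 with Mirlet7d had 333 and 239 reads, a MESC to MEF ratio of 1.07 (0.902 to 1.27). Mirlet7g inside Wdr82 had 66 and 33, 1.53 (0.995 to 2.40). Mirlet7f-2 with Mir98 inside Huwe1 had 70 and 35, 1.53 (1.01 to 2.37). The gene of Lin28a, whose protein blocks let-7 processing after transcription, had 699 reads in MESC and 0 in MEF.

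Imprinted microRNA genes fell into separate patterns by locus. Mir675, in the maternally expressed gene H19 on chromosome 7, 149762969 to 149763052, had 13 reads in MESC and 355 in MEF, 35.6-fold higher in MEF (20.6 to 67.6), the lowest ratio among outside clusters with at least 50 reads. Mir483, in an intron of the neighbouring paternally expressed growth factor gene Igf2, had 12 and 159, 17.3-fold (9.62 to 34.2). Mir335 in Mest had 126 and 23, a ratio of 4.20 (2.68 to 6.87) towards MESC, and this call was lost under 6 other settings, scaling to gene bodies among them. Mir298 had 226 and 92 reads and stayed within 4-fold.

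At the large imprinted domain of chromosome 12, which holds the maternally expressed non-coding genes Meg3, Rian and Mirg, the pools hardly differed. Its 9 clusters with 52 hairpins span 110782751 to 110986170 on the plus strand. Their densities ran from 1.57 to 5.17 RPKM in MESC and from 2.16 to 5.17 in MEF, and the MESC to MEF ratios from 0.649 to 1.05. All 9 lay within 4-fold. In 3 of them the interval lay under 1, and Mir379 with 32 hairpins had the most reads, 786 in MESC and 817 in MEF, a ratio of 0.738 (0.668 to 0.814). Mir770 in Meg3 had 125 and 139 reads, and the Mir337 cluster, with Mir127 and Mir136, 367 and 298.

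**Figure D4:**
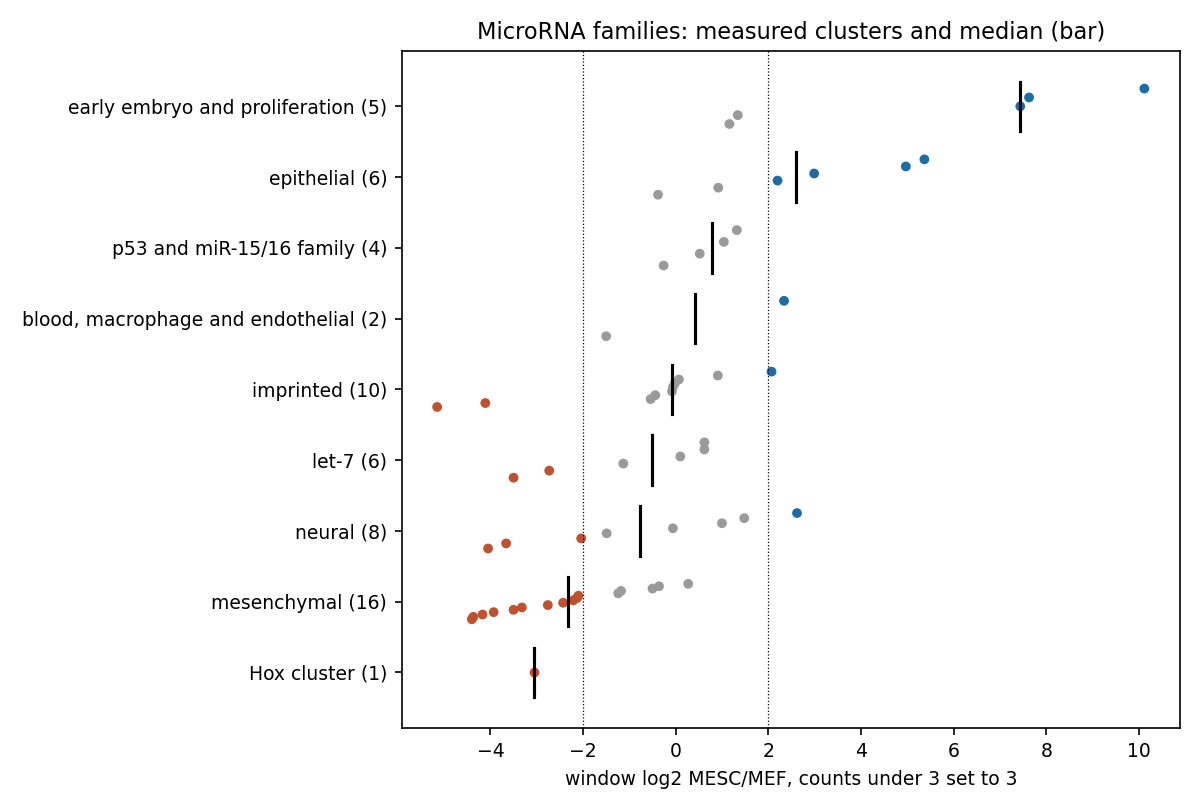
Log2 MESC to MEF ratio of each measured cluster (points) by family list, with the number measured in brackets and the median as a bar; blue and orange points lie past 4-fold (dotted lines). The early embryo list has its median at 7.44, the epithelial list at 2.60 and the mesenchymal list at -2.32, while the imprinted list has calls both ways.

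The muscle list and the blood, macrophage and endothelial list were measured less often than the 54.5% of all clusters with a microRNA name. So was the Hox cluster list, given below, with 1 of 6. None of the 8 muscle clusters, among them Mir1a-1, Mir206 and Mir133a-1, reached 20 reads, with at most 6 reads in MESC and 12 in MEF. Of 8 blood, macrophage and endothelial clusters 2 were measured. Mir126 in Egfl7, a microRNA of vessels, had 66 reads in MESC and 10 in MEF, a ratio of 5.06 (2.59 to 11) that fell under 4-fold with windows of 1 kb, and Mir142 had 18 and 39. Mir223, known from macrophages, had 0 and 14. Macrophage marker genes were also higher in MEF, as given above, and their part in Mir142 and Mir223 was not tested.

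Of 15 neural clusters 8 were measured, near the 54.5% of all clusters with a microRNA name. Of the 8, 1 was called higher in MESC and 3 higher in MEF. The shares over all measured clusters with a microRNA name were 12% and 16.1%, and nothing is read from so few calls. Mir218-2 inside Slit3 had 3 reads in MESC and 38 in MEF, and Mir218-1 inside Slit2 had 1 and 29, both within introns of guidance genes. Both calls were lost with windows of 1 kb and with a minimum of 50 reads. Mir9-2 had 13 and 41 reads, a call lost under 4 settings, and Mir7b 24 and 2, a call lost under 5. Of 6 Hox cluster microRNAs, Mir615 in Hoxc5 alone was measured, with 6 and 38 reads, 8.26-fold higher in MEF (3.46 to 23.9), under the stricter minimum of 50 reads. Of 5 clusters of the p53 and miR-15/16 groups, none of the 4 measured was called, as was true of 138 of all 192 measured clusters with a microRNA name. Mir34a, induced by p53, had 94 and 35 reads, a ratio of 2.06 (1.38 to 3.13), and Mir15b with Mir16-2 in Smc4 had 71 and 38.

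Seeds were then compared across clusters. Mature sequences could be placed for 420 of the 550 named hairpins, and 370 seeds fell on measured clusters, 44 of them on at least 2. Of these 44, 4 seeds had at least 2 clusters higher in MESC, 4 had at least 2 higher in MEF and 0 had calls both ways. Since 10.8% of all measured clusters were called higher in MESC and 13.6% higher in MEF, few such seeds could arise, and nothing is read from the 0. The seeds with at least 2 clusters higher in MESC were AAGUGCU (Mir290, Mir302b), AUUGCAC (Mir302b, Mir106a), AACACUG and AAUACUG (both Mir200b, Mir200c). AUUGCAC lay on 6 measured clusters, and 4 of them, Mir92b, Mir106b, Mir32 and Mir17, were within 4-fold. The MEF seeds were GAGGUAG of let-7 (Mirlet7c-2, Mir99a), the pair of Mir199a-1 and Mir199a-2, and UGUGCUU of Mir218-1 and Mir218-2. GAGGUAG and UGUGCUU rest on calls that some settings end. The pair rests in part on Mir199a-1, whose interval reaches below 4-fold and which was not followed under other settings. A cluster counts under several seeds, and copies of 1 microRNA carry the same seed, so this is a description.

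Inside coding genes, window and host moved together. For 220 clusters both the window and the body of the host gene could be measured, the body counted from 1000 bp after the start without the window. Across these clusters the log2 ratios of window and host had a Pearson r of 0.90 and a Spearman rho of 0.82, given without a p because window and body are parts of 1 transcript. The ratios differed by under 1 log2 unit in 195 clusters and by at least 2 in 5. All 14 clusters called higher in MESC with a measured host had the host higher in MESC too, 8 of them by at least 4-fold. All 27 called higher in MEF had the host higher in MEF, 22 of them by at least 4-fold.

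**Figure D5:**
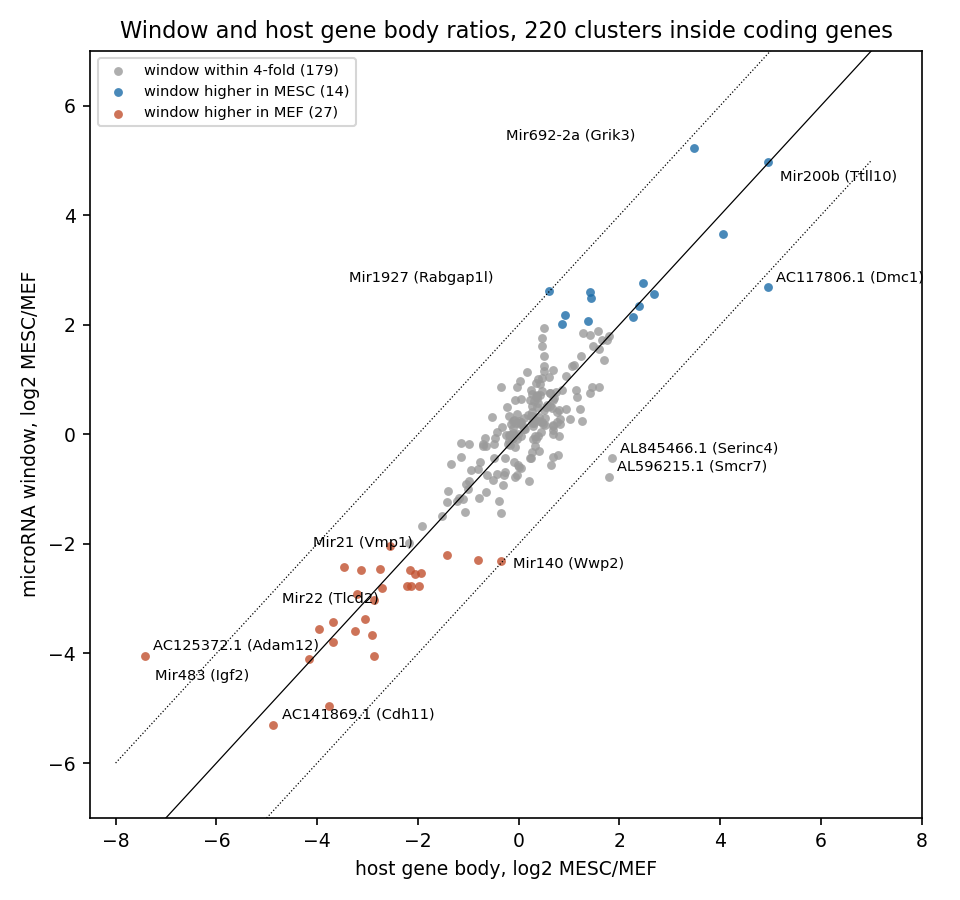
Log2 MESC to MEF ratio of the host gene body (x) and of the microRNA window (y) for 220 clusters inside coding genes, coloured by the call of the window; the solid line marks equality and the dotted lines a gap of 2 log2 units. Points follow the solid line, and 5 clusters lie at or past the dotted lines, AC125372.1 in Adam12 among them.

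Mir692-2a in Grik3, a glutamate receptor gene, had 146 reads in MESC and 1 in MEF, a ratio of 112 (19.8 to 4451), but fell under 4-fold with MESC reads of 35 bases alone. Mir135b in Lemd1 had 107 and 12, 6.84 (3.76 to 13.6). BX005053.1 in Foxd3, a transcription factor of pluripotent cells, had 50 and 2, a call lost under 2 settings. The largest cluster by far, Mir466f-1 in an intron of Sfmbt2 with 119 hairpins, had 146 and 19 reads, a ratio of 5.89 (3.64 to 10.1), while 50.1% of its 35-base words were unique in the genome, and its call was lost with MESC reads of 35 bases. Towards MEF, AC141869.1 in the cadherin gene Cdh11 had 1 and 91 reads, AC152987.1 in Eif4e3 had 5 and 119, and Mir1903 in Nrp1 had 19 and 171. CT025619.1 in 2610203C20Rik had 122 and 998, 10.7-fold higher in MEF (8.83 to 13.0). AC124180.1 in Boc had 6 and 64, and AC102525.1 in Gm5607, towards MESC, 55 and 7.

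Most windows were about as dense as their host. The ratio of window to host body density had a median of 1.08 in MESC over 196 clusters, with quartiles of 0.789 and 1.70, and of 1.09 in MEF over 165, with quartiles of 0.831 and 1.78. At least 4-fold more polymerase over the window was seen in 12 clusters in MESC and 8 in MEF. Mir21 stood out, its window being 18.8 times as dense as the body of Vmp1 in MESC (17.1 to 20.7) and 32.3 times in MEF (30.5 to 34.2). The 4 bins of 1 kb before the hairpin held 81, 294, 408 and 760 MEF reads in turn, within a gene whose start lies 99678 bp from the hairpin. Mir21 is known to have a promoter of its own inside Vmp1.

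Mir23b was 5.30 and 4.65 times as dense as its host body, Mir1904 in Pde4d 6.25 and 7.61 times, and Mir1938 in Ifrd1 4.65 and 6.25 times in MESC and MEF. Mir1894 reached 8.15 and 8.20 times the body of Ppp1r10, but its window holds the start of that gene, where polymerase usually stands densest. Among windows without a coding start the median was 1.04 in MESC and 1.05 in MEF. The opposite case was Mir1942 in Plec, with 0.200 of the host density in MEF (0.130 to 0.294). Mir140 in Wwp2, a cartilage microRNA, matched its host in MESC (1.01) and was 3.93 times as dense in MEF (3.11 to 4.91). Its window had 23 and 88 reads while the body of Wwp2 had 657 and 645.

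In 5 clusters the window and host ratios differed by 2 log2 units or more. AC125372.1 in Adam12 had 0 reads in MESC and 38 in MEF while the host body had 31 and 4060, so the window could not show a ratio as low as the host's. AC117806.1 in Dmc1, with 25 and 0, had the same limit at the other end. AL596215.1 in Smcr7 had 51 and 67 reads against 27 and 6 in the host, AL845466.1 in Serinc4 had 49 and 51 against 66 and 14, and Mir1927 in Rabgap1l had 32 and 4 against 1064 and 535.

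The densest windows were mostly not those of well-known microRNAs. The window of mmu-mir-2134-4 on chromosome 13 held 171009 reads in MESC and 273880 in MEF, but it lies in a locus similar to ribosomal DNA, and 4.88% of its 35-base words are unique. AL844840.2 had 4109 and 1280 reads at 9 and 8 positions only. Mir760 had 912 and 1039 reads at 67 and 71 positions, none of them within the hairpin. AC129217.1, with 1665 and 577 reads, has a small nucleolar RNA gene, SNORA57, in its window. Inside coding genes the densest were mmu-mir-703 in the elongation factor gene Eef1a1, Mir1894, AC151602.1 in the ferritin gene Ftl1, AL669855.1 in the actin gene Actg1, and Mir21.

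Several clone-named outside clusters had high ratios on a narrow base. AC121784.1 on chromosome 12 had 135 reads in MESC and 2 in MEF, but the MESC reads lay at 3 positions. With positions counted once, both pools stand at or under the floor of 3, and no ratio can be given. AC122337.1 had 313 and 15 reads, and 84.0% of the MESC reads began within the hairpin (79.5 to 87.9), at 37 positions in the whole window. The call was lost under 3 other settings, with a log2 ratio of 0.85 with positions counted once and 0.52 with MESC reads of 35 bases alone, and it was also lost without the hairpin. AL929465.1 had 128 and 1 reads, with 10.8% of its words unique. AL732525.2 had 68 and 3 reads at 63 and 3 positions. Towards MEF, AL928593.1 had 46 and 345 reads at 39 and 258 positions, 9.78-fold higher in MEF (7.18 to 13.6). AL808027.1 had 39 and 148 and AC163033.1 18 and 59, calls lost under 3 and 2 other settings. Mir193, which carries a microRNA name, had 25 and 106, a call lost under 1 other setting. Over all windows outside the ribosomal loci, 5.13% of MESC and 5.47% of MEF reads began at words that occur more than once in the genome, against 12.3% of positions.

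Pooled over hairpins, read starts were about as dense as in the DNA beside them in MESC and somewhat denser in MEF. Over microRNA-named hairpins with no other hairpin within 500 bp, in clusters with at least 50 reads, 106 in MESC and 94 in MEF, distinct read starts per kb of hairpin were 1.04 times those of the 500 bp on either side in MESC (0.928 to 1.17) and 1.19 times in MEF (1.07 to 1.33). Yet 65 of the 106 and 69 of the 94 hairpins lay below their flanks. In MESC, the named clusters with high shares of window reads in the hairpin included AL671882.1 (43.6%), AC152453.1 (30.4%) and Mir1983 (29.1%). At Mir320, 36.7% of MESC reads (24.6 to 50.1) and 59.5% of MEF reads (50.2 to 68.3) began in the hairpin, which makes up 2.01% of the window.

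Most clusters had few antisense reads. Among clusters with at least 50 sense reads, the median antisense share was 4.62% outside and 1.49% inside in MESC, and 0.422% and 2.78% in MEF. At least as many antisense as sense reads were seen at 9 outside clusters and 1 inside in MESC, and at 4 and 1 in MEF. High shares were seen at CT010508.1 (64 sense and 615 antisense reads in MESC), AL669944.1 (52 and 176), Mir92b (50 and 125) and Mir1934 (79 and 194). At Mir200c the MESC pool had 83 sense and 97 antisense reads and the MEF pool 8 and 54, so the MESC excess lay on the strand of the hairpins. At Mir290 it had 4362 sense and 14 antisense reads.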

How the data were processed

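The authors deposited 1 list of aligned reads per cell type, with 1 line per read, so the unit is a raw read count, and per the file headers the libraries of a cell type were pooled. Per the series design text, alignment was to mm9 with Eland, and reads in regions similar to rRNA were removed. Of the deposited reads outside the mitochondrial genome, 11.6% in MESC and 16.4% in MEF still lay at loci similar to ribosomal DNA. These reads stayed in the totals behind every RPKM. The Eland version and its handling of repeated matches: not given in the sources used here. No edgeR test of cell types was possible, since reads carry no sample names; a fold rule replaced it.

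Each read counted once, at its 5′ base, for windows on its strand. In a check of 1 read in 400, 93% (MESC) and 95.5% (MEF) lay on genome sequence that fits them with up to 2 mismatches. Ratios have exact conditional Clopper-Pearson 95% intervals. Gene bodies ran from 1000 bp after the start in models of at least 2000 bp. Named clusters were those with the highest and lowest ratios among clusters with at least 50 reads, the densest, and up to 4 of each of 10 family lists, plus those with unusual host, hairpin or antisense values. Other clusters named for context were chosen after their values were seen. The members and lists were chosen with earlier results of these data known. Tools were Python 3.11.15, numpy 2.4.6, pandas 2.3.3, scipy 1.17.1, numba 0.67.0 and R 4.3.3 with edgeR 4.0.16 for TMM factors; the fold rule was tested on simulated data. Signal tracks were not used here.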

Additional observations from a re-analysis of the deposited data

How the results depend on the processing

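No paired analysis was possible because the reads carry no sample names, so leaving out a replicate could not be run either. Scaling to the median gene body shifted every log2 ratio by -0.30 and TMM by -0.24. Totals were also taken without loci similar to ribosomal DNA. Outside coding genes 25 clusters were then higher in MESC and 25 in MEF, and inside 14 and 29. Outside coding genes the counts higher in MESC and in MEF, 26 and 25, became 12 and 13 with at least 50 reads in 1 library and 14 and 14 with microRNA names alone, a setting added after seeing the data. The counts were 40 and 28 with windows of 5 kb, 13 and 22 with MESC reads of 35 bases alone and 15 and 28 with those of 36 bases. With MESC thinned to the MEF total they were 19 and 26, so the near-equal counts outside were not kept with fewer MESC reads. Inside coding genes, 16 and 28 became 9 and 17 with windows of 1 kb, 9 and 16 with at least 50 reads and 9 and 17 with microRNA names alone. They were 10 and 27 with MESC reads of 35 bases, 11 and 29 with those of 36 bases and 15 and 29 with MESC thinned. Each of these settings but the 5 kb windows leaves fewer clusters or reads. With at least 50 reads in the library, outside clusters read numbered 76 in MESC and 64 in MEF, and inside ones 106 and 85. Of 45 named clusters called, 22 kept their call under every setting run on them, Mir290, Mir302b, Mir106a, Mir183, Mir200b, Mir200c, Mir675, Mir199a-2, Mir214, Mir143, Mirlet7c-2 and Mir483 among them. A setting that filtered a cluster out was not counted for it. AL929465.1, also among the 22, was thus judged on 14 settings and Mir290 on 16. For AC121784.1 the computed log2 ratio was -0.38 with windows of 1 kb and -0.45 with positions counted once, values that only reflect the library totals because both counts stand at the floor of 3, and not a change of direction. Ratios against 1 read have wide intervals, and those given against 0 reads rest on the floor of 3.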
